A study of Mus musculus with 12 samples.

Results

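The genes described here encode cullin-RING ubiquitin ligases and their regulators, with the exception of the CUL4 scaffolds themselves. Members were chosen by name. They were the protein-coding rows with symbols that begin Dcaf, Cul, Cops or Klhl followed by a digit, and Nedd8, Cand1, Cand2, Rnf7, Ube2m, Ube2f, Skp1a, Skp2, Crbn, Dtl, Det1 and Dda1. Cul4a and Cul4b were left out. The rule found 76 genes among the 52636 genes of the series, of which 22027 were protein-coding. They fall into 6 classes: 6 cullin scaffolds, 17 receptors of CUL4, 36 KLHL adaptors, 2 SKP genes, 9 subunits of the COP9 signalosome, and 6 genes of the NEDD8 cycle, receptor exchange and the RING subunit.

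A cullin is an elongated scaffold that holds a RING protein, which recruits the ubiquitin-loaded enzyme, at one end and a substrate receptor at the other. CUL1 reaches F-box receptors such as SKP2 through SKP1, CUL3 binds BTB-Kelch proteins of the KLHL family directly, and CUL4 binds DCAF receptors, cereblon (Crbn) among them, through DDB1. Attachment of the small ubiquitin-like protein NEDD8 to the cullin by the conjugating enzymes UBE2M or UBE2F switches a ligase on, the COP9 signalosome removes NEDD8, and CAND1 then helps to exchange one receptor for another. The cullins thus share one activation cycle and partly share their RING subunits.

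All mice were C57BL/6 and carried ApcMin/+, a truncating allele of the tumour suppressor Apc that gives intestinal adenomas and activates Wnt signalling in them. They were Cul4bWT (WT) or Cul4bdeltaIEC (KO), in which Cul4b is deleted in intestinal epithelium only, so that other cells of the tissue keep it. RNA from colon adenoma (T) and from adjacent normal colon (N) was sequenced in 12 libraries, 1 for each genotype and tissue at 3, 4 and 5 months, so each of the 4 groups (WT N, KO N, WT T and KO T) held 3 libraries. The labels name neither the Cre line nor separate animals, and p-values therefore measure the spread between these libraries, which may be technical. Within a group, values are given below in the order 3, 4 and 5 months. Levels are FPKM as deposited, that is fragments scaled to gene length and to a total per library. That total, read back from the values, was 0.72 to 0.91 of the reads in genes in N libraries. In T libraries it was 1.13 to 1.30 of them, so the deposited scale sets T lower against N than plain read totals would. The authors deposited separately scaled tables for 3 to 4 months and for 5 months. A level at 5 months is therefore not comparable with one at an earlier age.

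Reads in genes ranged from 18263611 to 25321931 per library. Cul4b, the targeted gene, measured 11.5 to 15.0 FPKM in WT N against 0.920 to 2.99 FPKM in KO N, and 7.88 to 12.3 FPKM in WT T against 1.46 to 2.27 FPKM in KO T. Colonocyte markers fell in T in 10 of 10 tested genes (summed level 2141 to 23260 FPKM in N and 133.8 to 448.3 FPKM in T), goblet cell markers fell in 8 of 8, Wnt targets rose in 10 of 10 (11.6 to 33.7 FPKM in N and 151.0 to 254.7 FPKM in T) and macrophage and neutrophil markers rose in 7 of 8. Fibroblast and endothelial markers rose in 5 of 9 (19.9 to 119.3 FPKM in N and 50.8 to 138.5 FPKM in T). Proliferation markers fell in 3 of 10, muscle markers in 1 of 9, B cell markers in 2 of 5 and T cell markers in 1 of 7, and neuron and glia markers passed in 0 of 2. The defining striated muscle genes Ckm and Myl1 were at 0 in some libraries. The part of these shifts in cell makeup in the ligase genes below was not tested, and in bulk tissue fewer cells of a type and less RNA per cell cannot be told apart. One library stood apart: KO N of 3 months had a summed muscle marker level of 620.6 FPKM, against 31.6 to 115.1 FPKM in the other N libraries, a B cell marker sum of 69.1 FPKM and the lowest colonocyte sum of N, so counts are also given without it. Among the T libraries, WT T and KO T of 5 months had muscle marker sums of 305.2 and 224.6 FPKM, against 25.5 to 59.2 FPKM in the other 4, and the highest immunoglobulin shares of reads (3.39% and 2.03%). Marker sums of 5 months, in N and in T, come from the separately scaled table, whereas shares of reads do not depend on that scaling.

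Of the 76 genes, 57 averaged 0.5 FPKM or more across libraries and were tested among 15526 genes. They were 5 of 6 cullins, 15 of 17 CUL4 receptors, 20 of 36 KLHL genes and all members of the other classes (9 COP9 subunits, 6 NEDD8-cycle genes and 2 SKP genes). The other 19, of which 16 are KLHL genes, had 0 to 1429 reads in total over the 12 libraries. The filter lay in a gap, since the highest mean below it was 0.415 FPKM (Cul9) and the lowest above it was 0.887 FPKM. Highest of all was Nedd8, with a mean of 372.4 FPKM, followed by Skp1a with 173.8 FPKM.

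Promoters are shown for 4 members, chosen because their levels frame the tissue comparison or because they hold a searched motif. Sequences are from RefSeq (build GRCm38.p6), which had an entry for 64 of the 76 members, and each run is read 5′ to 3′ on the gene's own strand and ends directly before the transcription start of the table, or 1 base earlier for Cul7. Cul7 was the cullin that rose in adenoma as deposited, and Klhl7 the member with the largest fall. Dcaf8 rose in adenoma and holds a core of the sites bound by the TCF/LEF factors of Wnt signalling, in capitals. Dtl, a receptor that carries DNA replication factors to CUL4, holds an E2F motif, in capitals.
Cul7 (chr17:46650088-46650336, plus strand): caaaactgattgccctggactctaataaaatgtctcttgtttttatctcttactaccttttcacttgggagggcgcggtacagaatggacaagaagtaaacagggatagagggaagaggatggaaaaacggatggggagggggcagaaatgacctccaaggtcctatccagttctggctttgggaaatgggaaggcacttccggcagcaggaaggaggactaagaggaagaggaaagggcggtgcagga
Klhl7 (chr5:24100340-24100589, plus strand): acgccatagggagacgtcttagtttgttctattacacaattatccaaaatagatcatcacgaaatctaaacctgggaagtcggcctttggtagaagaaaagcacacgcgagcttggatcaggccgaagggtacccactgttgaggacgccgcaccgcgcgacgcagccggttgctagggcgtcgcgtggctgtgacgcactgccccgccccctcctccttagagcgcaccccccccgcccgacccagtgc
Dcaf8 (chr1:172147765-172148014, plus strand): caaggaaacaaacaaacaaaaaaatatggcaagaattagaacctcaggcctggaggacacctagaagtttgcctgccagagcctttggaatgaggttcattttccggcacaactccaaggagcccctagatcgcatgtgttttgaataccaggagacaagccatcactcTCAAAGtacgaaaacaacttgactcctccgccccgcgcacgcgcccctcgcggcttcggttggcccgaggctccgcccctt
Dtl (chr1:191575545-191575794, minus strand): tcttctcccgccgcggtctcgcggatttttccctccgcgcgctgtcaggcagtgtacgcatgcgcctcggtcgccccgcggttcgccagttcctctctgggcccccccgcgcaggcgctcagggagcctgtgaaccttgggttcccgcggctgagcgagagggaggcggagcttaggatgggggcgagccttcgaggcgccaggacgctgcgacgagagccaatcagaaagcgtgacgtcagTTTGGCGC

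The motifs were searched on both strands of the 250 bases before the start. The TCF/LEF core was CTTTGA or its reverse complement, and the E2F motif was TTTNGCGC or its reverse complement. A site of one kind can share at most its last base with a site of the other. A TCF/LEF core lay in 7 of 64 member promoters (10.94%), against 13.83% of the 32851 promoters in the table, and the 7 genes were Cops4, Cops6, Dcaf15, Dcaf8, Klhl23, Klhl6 and Ube2f. In Dcaf8 it began 81 bases before the start. An E2F motif lay in 2 of 64 (3.125%), Dcaf15 and Dtl, against 1.132% of all promoters, and in Dtl it occupied bases 8 to 1 before the start. Of 7 matched members that were higher in adenoma, 1 (Dcaf8) held the TCF/LEF core (14.29%), and of 9 that were lower, 0 did. Of 33 matched members that were not called, 6 held it (18.18%). A match says only that these letters are present.

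The first question was how the ligase genes of an adenoma differ from those of the colon beside it. Across both genotypes, 11 of 57 members rose and 9 fell in T (limma, Benjamini-Hochberg adjusted p under 0.05 over all genes), so 35.09% passed, fewer than the 49.1% of all tested genes that did. By direction, 19.3% of members rose against 23.9% of all genes, and 15.79% fell against 25.2%. The median log2 difference was -0.09 for the members and 0.01 for all tested genes. In all 6 pairs of the same genotype and age, T lay above N for 9 members (15.79%, against 21.0% of all genes) and below for 10 (17.54%, against 22.8%). The KLHL class had 10 of its 20 tested genes called (6 up, 4 down), the CUL4 receptors 4 of 15, the COP9 subunits 3 of 9, the cullins 2 of 5, the SKP genes 1 of 2 and the NEDD8-cycle genes 0 of 6. Without KO N of 3 months, 10 rose and 9 fell.

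Direction in this comparison depends on how libraries are scaled. The deposited FPKM summed to 507630 to 665310 per N library and 320360 to 373030 per T library, and rescaling every library to the same sum (TPM) moved the median of all genes from 0.01 to 0.66 on the log2 scale. After it, 45 members were called higher and 1 lower (59.0% and 10.3% of all genes). All 11 members that had risen were still called higher. Of the 9 that had fallen, Klhl7 alone was still called lower, Klhl22 and Crbn kept their sign without passing, and Cul3, Dcaf11, Cops2, Klhl2, Klhl9 and Cops9 changed sign. With upper-quartile scaling, 7 of the 9 were still called lower, and with voom on recovered reads all 9 were. Under both, 0 of the 9 changed sign, and all 11 rises were still called. Both left the median of all genes near 0 (0.09 and -0.03), as the deposited scale did, so they are not a separate check of it. The TPM difference is therefore given below beside each fall, and a fall, in the members as in the marker and pathway lists, is one on the deposited scale. Intervals and calls below are also on the deposited scale unless another is named. Mitochondrial genes held 7.49% to 12.7% of reads in N and 2.40% to 5.81% in T, and their part in the scaling was not tested beyond a rescaling without them and the immunoglobulin genes, under which 43 members passed. Of all 15526 tested genes, 8516 were called higher and 1742 lower under that rescaling.

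**Figure D1:**
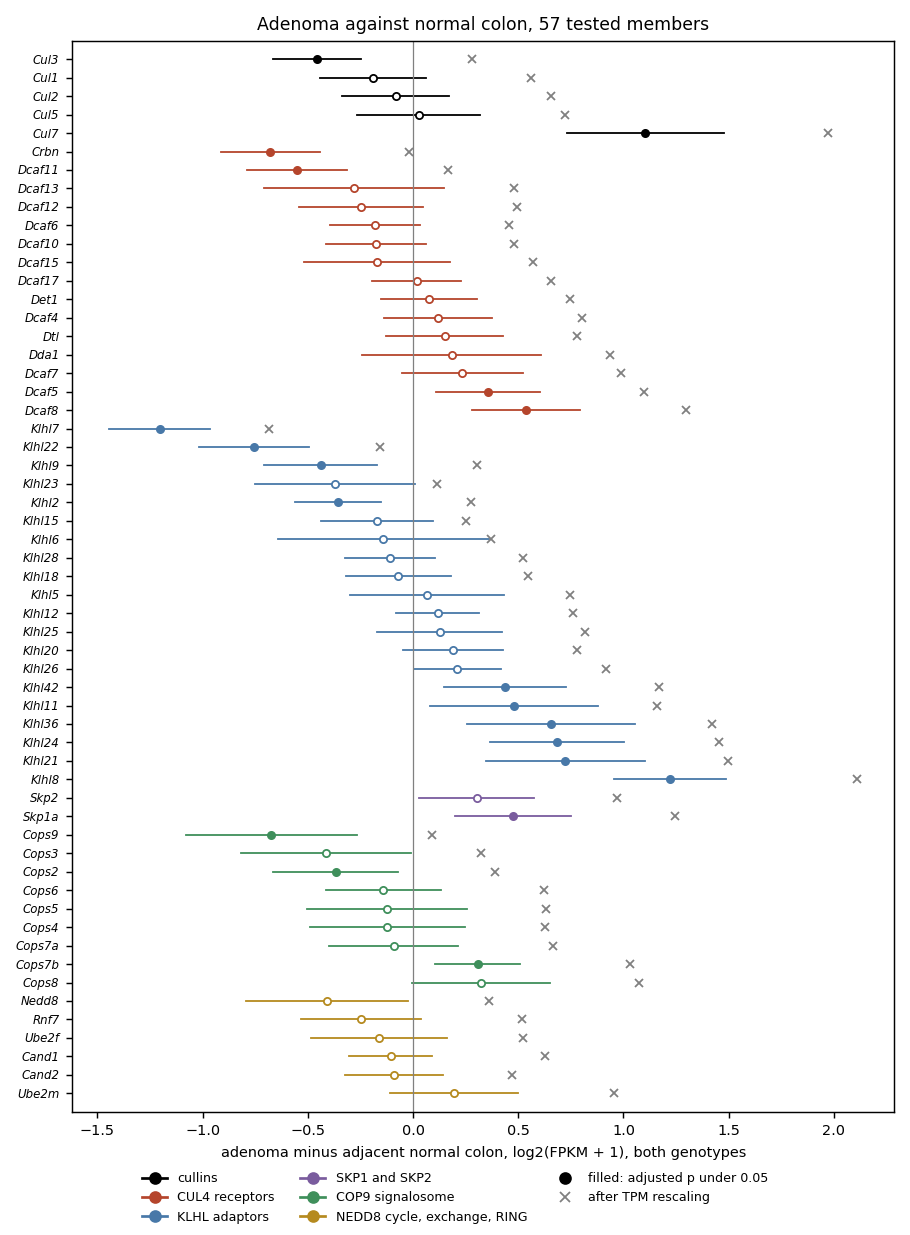
Adenoma minus adjacent normal colon for the 57 tested members, grouped by class, as log2 differences of FPKM + 1 over both genotypes with 95% intervals (x axis); filled points passed at an adjusted p under 0.05 and grey crosses give the difference after TPM rescaling. Klhl8 and Cul7 lie farthest to the right (1.22 and 1.1) and Klhl7 farthest to the left (-1.21 as deposited, -0.69 after TPM rescaling), while Cul3, Dcaf11, Cops2, Klhl2, Klhl9 and Cops9 lie left of 0 as deposited and right of it after rescaling.

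Among the scaffolds, Cul7 rose, Cul3 fell, and Cul1, Cul2 and Cul5 did not pass as deposited. Under other settings, Cul1, Cul2 and Cul5 were each called in 2 (smallest limma adjusted p = 0.0019, 0.00066 and 0.0035). Their highest differences over the settings were the positive ones after TPM given below. Cul7 (ENSMUSG00000038545, chromosome 17, 46650337 to 46664364), the scaffold that works with the F-box protein Fbxw8, measured 0.68, 0.672 and 0.559 FPKM in WT N, 0.801, 0.775 and 0.922 FPKM in KO N, 2.25, 2.48 and 3.72 FPKM in WT T and 1.46, 2.45 and 4.86 FPKM in KO T. It was higher in T in all 6 pairs of the same genotype and age, 3.68-fold on average (range 1.82 to 6.65), and its log2 difference was 1.1 (SE 0.17, limma adjusted p = 0.00058). As a share of the cullin sum, in which a library's scaling cancels, Cul7 was highest in WT T and KO T of 5 months (8.29% and 9.55%). These are the T libraries with the high muscle marker and immunoglobulin levels. Without the 5-month libraries of every group, the log2 difference of Cul7 was 0.855 (limma adjusted p = 0.01). Cul9, the large parkin-like scaffold known for binding p53 and the closest relative of Cul7, was below the filter, with 0.202, 0.332 and 0.159 FPKM in WT N, 0.275, 0.166 and 0.484 FPKM in KO N, 0.502, 0.443 and 0.728 FPKM in WT T and 0.326, 0.364 and 0.994 FPKM in KO T. Its level was also higher in T in all 6 pairs, on 29 to 325 reads per library. In a fit of all genes without the filter its difference of 0.29 did not pass (limma adjusted p = 0.076).

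Cul3 (ENSMUSG00000004364, chromosome 1, 80264923 to 80340480) carries the KLHL adaptors and KEAP1. It measured 25.8, 24.4 and 14.9 FPKM in WT N, 21.4, 20.7 and 14.9 FPKM in KO N, 17.4, 15.2 and 10.2 FPKM in WT T and 18.7, 15.7 and 10.4 FPKM in KO T. Its level was lower in T in all 6 pairs, by 1.4-fold on average (range 1.14 to 1.6), with a log2 difference of -0.46 as deposited (limma adjusted p = 0.0029) and 0.28 after TPM rescaling (adjusted p = 0.067). Cul1 (ENSMUSG00000029686, chromosome 6, 47453398 to 47526139), the scaffold of the SCF ligases, measured 27.2, 24.9 and 30.2 FPKM in WT N, 23.3, 24.6 and 24.1 FPKM in KO N, 24.2, 20.6 and 18.6 FPKM in WT T and 27.96, 21.3 and 22.3 FPKM in KO T. T lay below N in 5 of 6 pairs, and the log2 difference was -0.19 (95% interval -0.44 to 0.06) or 0.56 after TPM. Cul2 (ENSMUSG00000024231), the scaffold used by VHL, measured 13.9, 12.6 and 11.8 FPKM in WT N, 11.01, 14.0 and 9.07 FPKM in KO N, 13.2, 11.4 and 8.11 FPKM in WT T and 13.8, 13.5 and 8.57 FPKM in KO T. The groups overlapped, with a difference of -0.08 (95% interval -0.34 to 0.17) or 0.65 after TPM. Cul5 (ENSMUSG00000032030, chromosome 9, 53614582 to 53670014), the scaffold of SOCS-box receptors, measured 4.49, 5.17 and 3.55 FPKM in WT N, 4.03, 4.96 and 3.998 FPKM in KO N, 5.84, 3.92 and 3.55 FPKM in WT T and 6.16, 3.83 and 3.85 FPKM in KO T. T lay above N in 3 pairs and below in 3, with a difference of 0.03 (95% interval -0.27 to 0.32) or 0.72 after TPM, and its sign turned without any 1 of the 3-month libraries.

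A library's scaling cancels in the share that one scaffold takes of the cullin sum, a comparison added after the data were seen. Cul7 made up 0.915% to 1.72% of the summed FPKM of the 6 cullins in N and 2.13% to 9.55% in T, and its share rose in all 6 pairs. Cul3 made up 24.3% to 35.9% in N and 20.4% to 28.2% in T, and its share fell in all 6 pairs. Cul1 was the largest part in every library, with 36.5% to 49.5% in N and 37.3% to 43.7% in T, and no side of the pairs prevailed (3 of 6 higher). An exact sign-flip test over 6 pairs cannot go below p = 0.03125, the value that both Cul7 and Cul3 reach (two-sided). Over the 57 members compared within their classes, 10 shares rose and 6 fell in all 6 pairs, and 0 passed after adjustment (smallest adjusted p = 0.111).

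**Figure D2:**
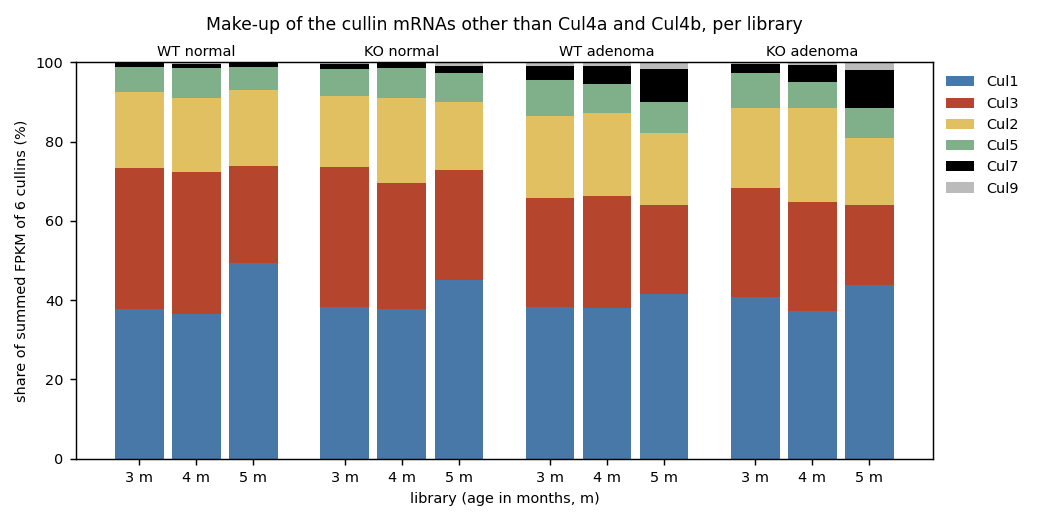
Share of each scaffold (y axis, percent) in the summed FPKM of the 6 cullins other than Cul4a and Cul4b, 1 bar per library, ordered by group and age (x axis). The black Cul7 segment spans 0.915% to 1.72% in normal colon and 2.13% to 9.55% in adenoma, while the red Cul3 segment is smaller in adenoma in each pair.

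Among the CUL4 receptors, Dcaf8 and Dcaf5 rose, Crbn and Dcaf11 fell, and 11 of 15 did not pass. Crbn (ENSMUSG00000005362, chromosome 6, 106780201 to 106800077) encodes cereblon, the receptor that thalidomide and related drugs bind. It measured 10.6, 9.25 and 6.305 FPKM in WT N, 9.42, 8.91 and 4.59 FPKM in KO N, 5.17, 4.03 and 3.05 FPKM in WT T and 7.21, 4.74 and 4.05 FPKM in KO T. T lay below N in all 6 pairs, by 1.73-fold on average (range 1.13 to 2.296). The log2 difference was -0.68 as deposited (SE 0.10, limma adjusted p = 0.00068) and -0.02 after TPM (adjusted p = 0.88). Crbn overlaps Trnt1 on the other strand. The kit named in the labels does not mark strand, and whether reads of both genes are mixed was not tested.

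Dcaf11 (ENSMUSG00000022214, chromosome 14, 55560006 to 55570065) measured 13.8, 14.7 and 17.8 FPKM in WT N, 10.8, 15.1 and 17.1 FPKM in KO N, 9.07, 8.94 and 11.1 FPKM in WT T and 8.04, 8.54 and 13.4 FPKM in KO T. It too was lower in all 6 pairs, 1.51-fold on average, with a log2 difference of -0.55 as deposited (limma adjusted p = 0.0021) and 0.17 after TPM. Dcaf8 (ENSMUSG00000026554, chromosome 1, 172148084 to 172197005), whose promoter is printed above with its TCF/LEF core, measured 6.13, 6.12 and 5.36 FPKM in WT N, 6.06, 6.49 and 6.22 FPKM in KO N, 9.14, 8.59 and 10.96 FPKM in WT T and 7.37, 8.65 and 11.2 FPKM in KO T. It was higher in T in all 6 pairs, 1.52-fold on average (range 1.22 to 2.04), by 0.54 on the log2 scale (limma adjusted p = 0.0037). Dcaf8 overlaps Pea15a, which averaged 20.3 FPKM, on the other strand. Dcaf5 (ENSMUSG00000049106, chromosome 12, 80335848 to 80436601) measured 4.75, 5.03 and 4.74 FPKM in WT N, 4.32, 4.54 and 4.502 FPKM in KO N, 5.23, 7.76 and 6.45 FPKM in WT T and 4.41, 7.73 and 6.45 FPKM in KO T. It rose 1.34-fold (range 1.02 to 1.703), a log2 difference of 0.36 (limma adjusted p = 0.023), and its call was lost without WT N of 4 or 5 months, KO N of 4 months, or any T library of 4 or 5 months.

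As a share of the CUL4 receptor sum, Crbn fell from 3.25% to 5.51% in N to 2.22% to 3.91% in T and Dcaf11 from 6.31% to 12.1% to 4.36% to 9.41%, both in all 6 pairs. Dcaf8 went from 3.18% to 4.40% up to 3.998% to 7.998%. Dtl, whose E2F motif is printed above, measured 1.59, 1.601 and 1.58 FPKM in WT N, 1.61, 1.35 and 1.34 FPKM in KO N, 2.35, 1.54 and 1.76 FPKM in WT T and 2.82, 1.395 and 1.17 FPKM in KO T. Its difference was 0.15 (95% interval -0.13 to 0.43), within the spread between libraries. The interval of Det1 and that of Dda1, which join CUL4 with the receptor COP1, also spanned 0 (-0.15 to 0.30 and -0.24 to 0.61). Among the other receptors, the differences ran from -0.28 for Dcaf13, a nucleolar protein of ribosome synthesis, to 0.23 for Dcaf7.

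Of the 20 tested KLHL adaptors, 6 rose, 4 fell and 10 did not pass. Klhl8 (ENSMUSG00000029312, chromosome 5, 103861973 to 103911259) measured 1.36, 1.13 and 0.555 FPKM in WT N, 0.976, 1.0 and 0.837 FPKM in KO N, 3.24, 3.84 and 3.64 FPKM in WT T and 3.04, 4.16 and 3.602 FPKM in KO T. T lay above N in every pair, 3.79-fold on average (range 2.39 to 6.55), and no T value fell within the range of N. The log2 difference was 1.22 (SE 0.12, limma adjusted p = 4.8e-05). Its share of the KLHL sum went from 0.783% to 1.56% in N to 3.99% to 5.23% in T. Klhl7 (ENSMUSG00000028986, chromosome 5, 24100605 to 24160792), an adaptor whose human counterpart is mutated in inherited retinal degeneration, measured 6.24, 6.58 and 6.67 FPKM in WT N, 6.78, 6.54 and 5.16 FPKM in KO N, 1.99, 1.85 and 1.97 FPKM in WT T and 2.23, 2.14 and 2.95 FPKM in KO T. It was lower in T in all 6 pairs, 2.91-fold on average (range 1.75 to 3.55), with a log2 difference of -1.21 as deposited (limma adjusted p = 2.8e-05) and -0.69 after TPM (adjusted p = 0.0018). Its share of the KLHL sum went from 7.18% to 9.39% in N to 2.52% to 4.04% in T. The neighbouring predicted gene Gm3724, which overlaps Klhl7 on the other strand, averaged 0.857 FPKM.

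Klhl22 (ENSMUSG00000022750, chromosome 16, 17759618 to 17793382) is known for its part in chromosome alignment and in mTORC1 signalling. It measured 5.25, 5.82 and 6.37 FPKM in WT N, 5.55, 5.92 and 5.21 FPKM in KO N, 2.46, 2.804 and 3.93 FPKM in WT T and 2.38, 2.39 and 4.12 FPKM in KO T. T lay below N in all 6 pairs, 1.93-fold on average (range 1.26 to 2.47). The log2 difference was -0.76 as deposited (limma adjusted p = 0.00067) and -0.16 after TPM (adjusted p = 0.37), and its share of the KLHL sum fell in all 6 pairs, from 6.05% to 8.98% in N to 3.00% to 5.64% in T. Klhl24 (ENSMUSG00000062901, chromosome 16, 20097554 to 20127744), which controls the turnover of keratin filaments in skin, measured 5.69, 4.81 and 4.68 FPKM in WT N, 6.302, 3.798 and 4.12 FPKM in KO N, 6.93, 8.89 and 8.16 FPKM in WT T and 7.44, 9.11 and 10.1 FPKM in KO T. It was higher in T in all 6 pairs, 1.74-fold on average, with a log2 difference of 0.68 (limma adjusted p = 0.0034). Klhl21 (ENSMUSG00000073700, chromosome 4, 152008803 to 152017680), which acts on Aurora B in mitosis, measured 2.48, 2.37 and 1.94 FPKM in WT N, 2.499, 1.65 and 1.32 FPKM in KO N, 2.79, 6.12 and 3.52 FPKM in WT T and 3.399, 6.0 and 3.01 FPKM in KO T. It rose 1.98-fold on average (range 1.12 to 3.63), with the widest gap at 4 months, and its log2 difference was 0.72 (limma adjusted p = 0.0061).

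Klhl36, Klhl42 and Klhl11 also rose, by 0.66, 0.44 and 0.48 on the log2 scale, each with T above N in 5 of 6 pairs. Klhl42 is known as an adaptor for the microtubule-severing protein katanin. Klhl2 and Klhl9 fell in all 6 pairs, with log2 differences of -0.36 and -0.44 as deposited, and were at 0.28 and 0.31 after TPM. Klhl9 acts on Aurora B together with Klhl13, and Klhl2 on the WNK kinases of salt transport. The remaining 10 tested KLHL genes had differences of -0.37 (Klhl23) to 0.21 (Klhl26). Klhl23, Klhl5 and Klhl6 were highest in KO N of 3 months, the library with the high muscle and B cell marker sums, at 3.94, 4.67 and 2.54 FPKM, and the part of those cells in their levels was not tested.

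**Figure D3:**
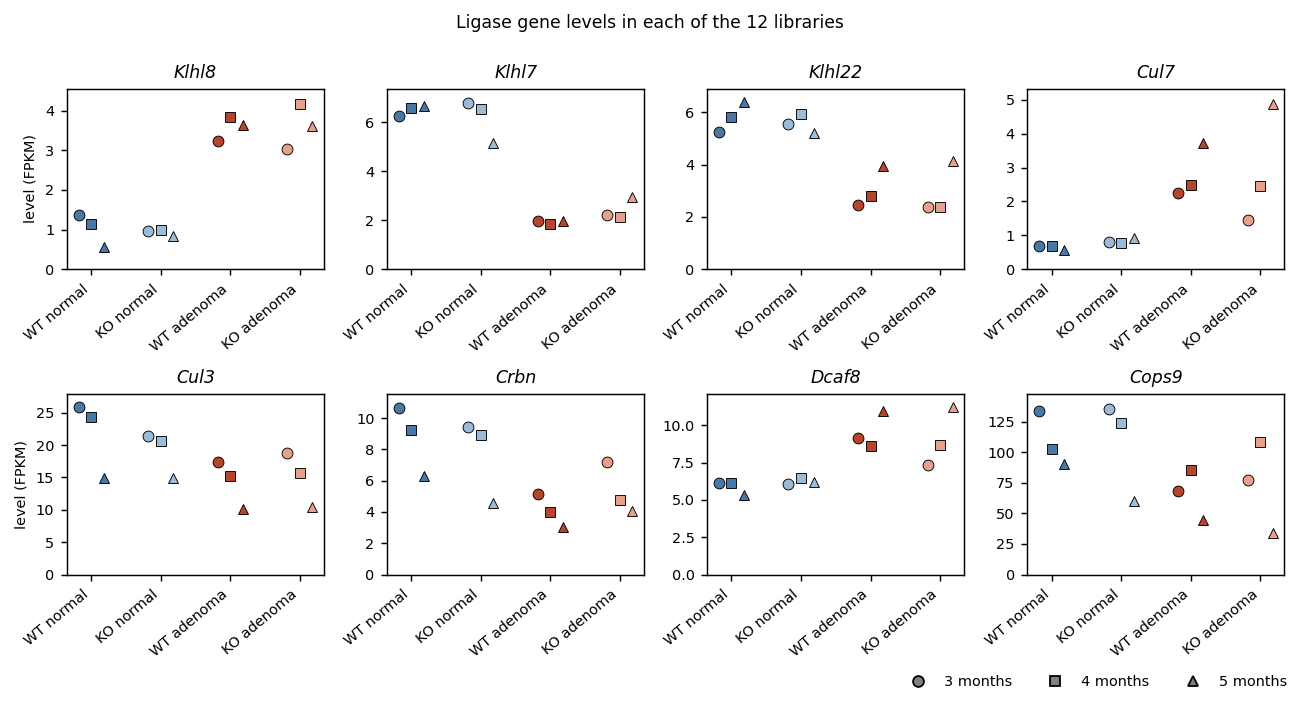
Level (y axis, FPKM) of 8 members in each library by group (x axis), with circles for 3 months, squares for 4 months and triangles for 5 months; the 5-month values come from a separately scaled table. Klhl8, Cul7 and Dcaf8 are higher and Klhl7, Klhl22, Cul3, Crbn and Cops9 lower in adenoma than in normal colon of the same genotype and age in all 6 pairs as deposited, and of the lower ones Cul3 and Cops9 change sign after TPM rescaling.

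Of the 2 genes of the SKP class, Skp1a rose. It (ENSMUSG00000036309, chromosome 11, 52231995 to 52246858) encodes the adaptor between CUL1 and every F-box protein, and measured 178, 151 and 140.0 FPKM in WT N, 158, 152 and 94.1 FPKM in KO N, 233, 180.1 and 152 FPKM in WT T and 237, 229 and 180.1 FPKM in KO T. T lay above N in all 6 pairs, 1.39-fold on average (range 1.08 to 1.92), with a log2 difference of 0.47 (limma adjusted p = 0.01). Skp2, the F-box receptor for the cell cycle inhibitor p27, was above N in 5 of 6 pairs, and its difference of 0.30 did not pass (adjusted p = 0.065).

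In the COP9 signalosome, 1 subunit rose, 2 fell and 6 did not pass. Cops9 (ENSMUSG00000073616, chromosome 1, 92637145 to 92641985), the small acidic subunit, measured 133, 103 and 90.5 FPKM in WT N, 136, 124 and 60.3 FPKM in KO N, 68.2, 85.1 and 44.5 FPKM in WT T and 77.0, 109 and 33.98 FPKM in KO T. It was lower in T in all 6 pairs, 1.605-fold on average (range 1.14 to 2.03), with a log2 difference of -0.67 as deposited (limma adjusted p = 0.013) and 0.09 after TPM. Cops7b (ENSMUSG00000026240, chromosome 1, 86582904 to 86609375) measured 2.83, 2.42 and 4.51 FPKM in WT N, 2.79, 2.85 and 3.83 FPKM in KO N, 3.4, 3.79 and 5.196 FPKM in WT T and 3.66, 3.87 and 5.12 FPKM in KO T. It was higher in all 6 pairs, 1.32-fold on average, by 0.31 on the log2 scale (limma adjusted p = 0.019), a call lost without WT T or KO T of 4 months. Its paralog Cops7a, at 19.1 to 50.5 FPKM, had a difference of -0.09 (95% interval -0.40 to 0.21). Cops2 fell as deposited (log2 difference -0.37, limma adjusted p = 0.043) and was called higher after TPM (0.39, adjusted p = 0.029). Cops5, the metalloprotease subunit that cleaves NEDD8 off, measured 46.4, 41.7 and 33.4 FPKM in WT N, 37.6, 55.4 and 25.4 FPKM in KO N, 48.7, 31.6 and 22.8 FPKM in WT T and 59.3, 38.5 and 24.9 FPKM in KO T. Its difference was -0.13 (95% interval -0.51 to 0.26). As shares of the COP9 sum, Cops6, Cops7b and Cops8 rose in all 6 pairs. In deposited levels, T lay below N in 5 of 6 pairs for Cops6 and above N in 5 of 6 for Cops8. Cops9, whose level was lower in all 6 pairs, made up 27.4% to 36.5% of that sum in N. Cops6 overlaps Mcm7, which averaged 17.8 FPKM, on the other strand, and mixing of their reads was not tested.

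Of the 6 NEDD8-cycle genes, 0 passed as deposited with limma, and 1, Nedd8, had an unadjusted p under 0.05 (55.5% of all genes did). With voom on recovered reads Nedd8 passed as lower in T (adjusted p = 0.040). Nedd8 (ENSMUSG00000010376, chromosome 14, 55662265 to 55671906) measured 519, 413 and 345 FPKM in WT N, 460.3, 568 and 241 FPKM in KO N, 419, 260.3 and 226 FPKM in WT T and 478, 308 and 231 FPKM in KO T, and its difference was -0.41 (95% interval -0.80 to -0.02) as deposited and 0.36 after TPM, where it was called higher (adjusted p = 0.045). As deposited, the intervals of Ube2m (-0.11 to 0.50), Ube2f (-0.49 to 0.16), the RING subunit Rnf7 (-0.53 to 0.04), Cand1 (-0.31 to 0.09) and Cand2 (-0.33 to 0.14) all included 0. Those of Cand1 and Cand2 stayed within 0.5 log2 units of 0. TPM moved the median log2 difference of all genes from 0.01 to 0.66, so these intervals describe the deposited scale only.

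Counts in neighbouring gene lists are to be read against the 23.9% of all genes that rose and the 25.2% that fell. Of 15 tested genes of the CUL4 ligase core that are no members, 2 rose: Wdr5 by 0.49, in all 6 pairs, and the adaptor Ddb1 by 0.62, in 4 of 6 pairs (limma adjusted p = 0.0033 and 0.040). None fell, that is 0 of 15. Of 25 other cullin-ligase subunits and adaptors, 6 rose and 3 fell, the latter Socs2 (-1.11 as deposited, -0.69 after TPM), Socs6 (-0.53, and 0.14 after TPM) and Asb8 (-0.67, and 0.03 after TPM), SOCS-box receptors that pair with CUL5. Of 23 F-box receptors, 5 rose and 2 fell, with Fbxo22 at 0.46. In the neddylation list, 3 of 15 rose and 2 fell. Gps1, which encodes COP9 subunit 1 under another name, rose by 0.38 in all 6 pairs, and Dcun1d1, a NEDD8 ligase, fell by 0.61 as deposited and was at 0.10 after TPM. Of 32 proteasome genes, 8 rose and 4 fell, and of 25 E2F targets 10 rose and 4 fell, with the replication licensing genes Mcm7 and Mcm2 up by 0.82 and 0.86. Of 10 proliferation markers 0 were higher and 3 were lower, with Mki67 at -0.75 as deposited and -0.01 after TPM.

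Read within each genotype, 13 members passed in WT (4 up, 9 down; 22.81%, against 36.1% of all genes, 16.3% up and 19.9% down) and 8 in KO (5 up, 3 down; 14.04%, against 30.0%, 14.0% up and 16.0% down). Klhl8, Cul7, Klhl7, Klhl22 and Dcaf11 passed in both. Without KO N of 3 months the counts were 14 and 9. Leaving out KO T of 4 months lowered the KO count to 4, KO N of 4 months, KO N of 5 months or KO T of 5 months to 5, and WT T of 4 or 5 months lowered the WT count to 8. The genotype by tissue interaction, which tests the difference itself, was called for 0 of 57 members and 0 of all 15526 genes (0.0%). With limma, 1.18% of all genes and 1 member had an unadjusted p under 0.05, and voom, TPM and the other settings also called 0 members. That member was Crbn, with log2 differences between T and N of -0.93 in WT and -0.43 in KO (interaction 0.50, 95% interval 0.03 to 0.98, limma adjusted p = 1.0). Next were Cops2 (interaction 0.57, 95% interval -0.02 to 1.16) and Skp1a (0.45, 95% interval -0.10 to 0.9965).

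The second question was whether loss of Cul4b in the epithelium changed the mRNA of the other scaffolds, of CUL4's own receptors or of the shared regulators. No member passed. The test called 0 of 57 in T, in N and over both tissues, against 0.00644% of all genes, which is Cul4b alone, and 0 members had an unadjusted p under 0.05, against 0.824% of all genes in T, 1.47% in N and 1.11% over both. Counts stayed at 0 with voom, with TPM and without KO N of 3 months. The shares of all genes lie below the one expected if nothing differed, so the test was conservative. With an age term within each tissue, 412 genes in T and 683 in N had an unadjusted limma p under 0.05. The fit used here, with 1 age effect for all groups, had 128 and 228, and its intervals are the ones given. All 57 of the 95% intervals lay within 1 log2 unit of 0 in each tissue. Within 0.5 units lay 30 of 57 in T, 28 of 57 in N and 54 of 57 over both tissues. The log2(FPKM + 1) scale understates the change of low genes, so these bounds are loose for the lowest members. Fitted differences ran from -0.27 to 0.31 in T and from -0.29 to 0.34 in N. A p that misses the threshold does not show equal levels.

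The scaffolds bracket 0 on both sides. KO minus WT in T was 0.17 for Cul1 (95% interval -0.19 to 0.52), 0.12 for Cul2 (-0.24 to 0.48), 0.06 for Cul3 (-0.24 to 0.35), 0.04 for Cul5 (-0.37 to 0.46) and -0.04 for Cul7 (-0.57 to 0.49). In N the values were -0.18 for Cul1, -0.17 for Cul2, -0.16 for Cul3, -0.01 for Cul5 and 0.16 for Cul7. Thus 4 of 5 scaffolds were above 0 in T and 4 of 5 below 0 in N, none beyond its interval. After TPM, 2 of 5 were above 0 and 3 below in each tissue.

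In T, the smallest p belonged to Crbn. Its T levels, given above, were higher in KO than in WT at all 3 ages, with a difference of 0.31 (95% interval -0.03 to 0.64, limma adjusted p = 1.0). Cops2, a core subunit of the signalosome, measured 75.9, 60.9 and 30.8 FPKM in WT N, 64.95, 51.7 and 22.99 FPKM in KO N, 53.04, 30.5 and 21.9 FPKM in WT T and 74.8, 36.7 and 23.6 FPKM in KO T. It was higher in KO T than WT T at all 3 ages (0.28) and lower in KO N than WT N at all 3 ages (-0.29). Klhl7 (0.22), Skp1a (0.21) and Klhl36 (-0.27) came next in T. Klhl36, measured at 1.24, 1.73 and 0.885 FPKM in WT N, 2.405, 1.396 and 1.099 FPKM in KO N, 2.301, 3.17 and 4.27 FPKM in WT T and 1.98, 2.78 and 2.68 FPKM in KO T, was lower in KO T than in WT T at all 3 ages.

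In N, Klhl2 had the smallest p (limma adjusted p = 1.0), and it measured 4.67, 4.68 and 4.77 FPKM in WT N, 3.46, 3.95 and 3.86 FPKM in KO N, 2.64, 3.49 and 3.22 FPKM in WT T and 2.54, 3.73 and 2.88 FPKM in KO T. It was lower in KO N than WT N at each age, with a difference of -0.27 (95% interval -0.55 to 0.02). Cand2, a relative of Cand1 known from muscle, measured 1.64, 1.29 and 2.78 FPKM in WT N, 1.18, 1.02 and 1.89 FPKM in KO N, 1.17, 1.32 and 2.08 FPKM in WT T and 0.803, 1.303 and 2.08 FPKM in KO T. It was lower in KO N at each age as well (-0.28, 95% interval -0.61 to 0.05). Its span overlaps Rpl32, a ribosomal protein gene at 1150.0 FPKM on the other strand, and mixing of their reads was not tested. Cand1 measured 12.8, 12.9 and 11.6 FPKM in WT N, 10.8, 10.98 and 10.5 FPKM in KO N, 9.94, 11.4 and 11.03 FPKM in WT T and 10.2, 11.6 and 9.84 FPKM in KO T, with a difference of -0.19 in N. Klhl42 measured 2.27, 2.405 and 1.56 FPKM in WT N, 1.95, 1.69 and 0.951 FPKM in KO N, 3.09, 2.34 and 3.37 FPKM in WT T and 2.85, 2.91 and 2.03 FPKM in KO T, with a difference of -0.29 in N. Dcaf10, a CUL4 receptor that was among the 5 smallest p over both tissues, measured 3.93, 3.64 and 4.66 FPKM in WT N, 3.45, 3.097 and 4.03 FPKM in KO N, 3.07, 3.97 and 3.204 FPKM in WT T and 2.49, 3.39 and 3.38 FPKM in KO T, with a difference of -0.14 (95% interval -0.38 to 0.10). Dcaf10 overlaps Exosc3, at 23.6 FPKM on the other strand, and mixing of those reads was not tested either.

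Signs repeated over ages in part. In T, KO lay above WT at all 3 ages for 13 of 57 members (22.81%, against 13.44% of all tested genes) and below for 6 (10.53%, against 13.70%). In N, KO lay above for 1 member, Cul7 (1.75%, against 6.60%), and below for 14 (24.56%, against 13.35%). Cops2, Crbn and Cul1 were above in T and below in N at all 3 ages. These signs move with the scaling: 44 of 57 fitted differences in N were below 0 as deposited and 21 after TPM, and in T 28 were below 0 as deposited and 41 after TPM.

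**Figure D4:**
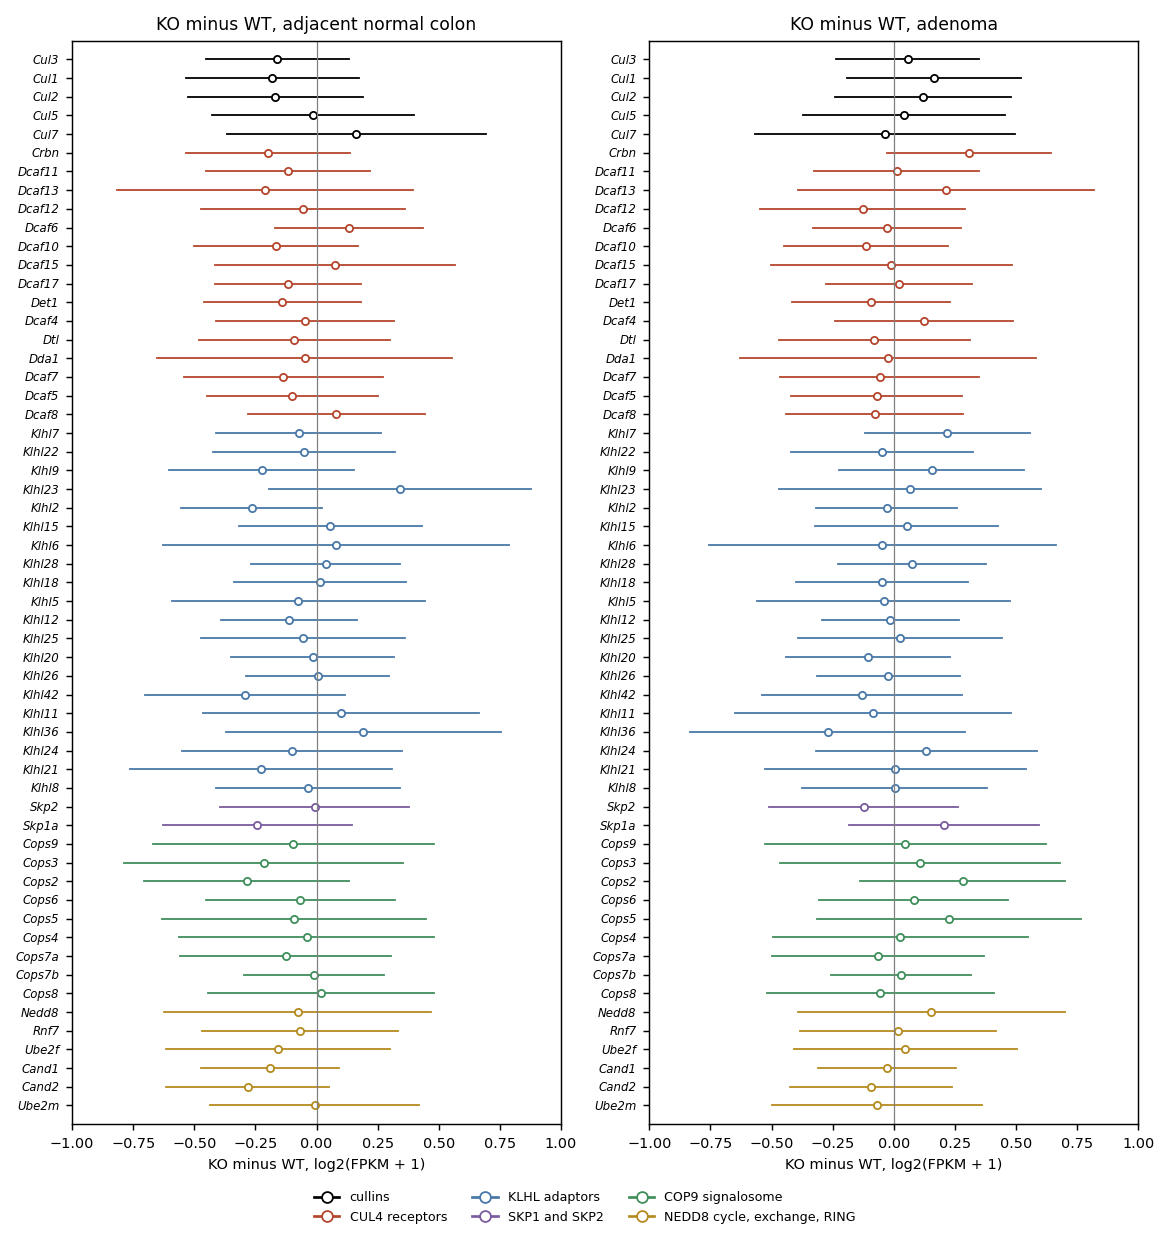
KO minus WT for the 57 tested members in adjacent normal colon (left) and adenoma (right), as log2 differences of FPKM + 1 with 95% intervals (x axes), coloured by class. All intervals lie between -1 and 1, none excludes 0, and no member passed; 44 of 57 points lie left of 0 in normal colon as deposited, and 21 do after TPM rescaling.

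Age could be compared between 3 and 4 months, which share a table. With 1 age effect for all groups, 0 of 57 members were called, against 0.0322% of all genes, and 9 had an unadjusted p under 0.05 (20.4% of all genes). The smallest p-values belonged to Cops2 (-0.61, limma adjusted p = 0.21), Klhl9 (-0.41) and Ube2m (0.45). Klhl9 measured 34.99, 32.3 and 21.9 FPKM in WT N, 33.2, 25.9 and 17.7 FPKM in KO N, 24.6, 15.2 and 16.9 FPKM in WT T and 28.5, 19.6 and 15.8 FPKM in KO T. A model with a separate age effect in each tissue, added after the data were seen, called 21 of 57 members in T (12 higher and 9 lower at 4 months; 36.84%, against 38.0% of all genes, 21.7% higher and 16.3% lower). In N it called 0 (against 0.271%; 1 member had an unadjusted p under 0.05, and 11.3% of all genes did). The share in T was near that of all genes. The balance of directions depends on the scaling: 7 members were higher and 11 lower in T with TPM (all genes 16.7% and 17.8%), and 7 higher and 14 lower with upper-quartile scaling (all genes 14.5% and 23.7%). Each side rests on 2 T libraries per age, and without any one of them the T count was 1 (KO T of 4 months), 2 (KO T of 3 months), 3 (WT T of 4 months) or 4 (WT T of 3 months). Age, animal and adenoma cannot be told apart at 1 library per genotype and age.

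The age difference in T differed from that in N for 5 members (8.77%, against 18.9% of all genes, 11.4% upward and 7.5% downward): Dda1, Klhl21, Dcaf12 and Ube2m, which were higher at 4 months in T, and Cul5, which was lower. With TPM, Dda1 and Klhl21 were still called (adjusted p = 0.023 and 0.049). Dcaf12, Ube2m and Cul5 were not (adjusted p = 0.13, 0.095 and 0.093), and Cops3, Dcaf13 and Cops5 were called lower in their place (all genes 6.84% higher and 7.08% lower). Dda1 measured 13.02, 12.8 and 17.4 FPKM in WT N, 12.9, 13.6 and 14.9 FPKM in KO N, 10.98, 25.5 and 15.02 FPKM in WT T and 10.8, 25.2 and 14.6 FPKM in KO T. The 3-month and 4-month values were close in N and far apart in T in both genotypes, with a T minus N difference of 1.12 (limma adjusted p = 0.014). Ube2m, the main NEDD8-conjugating enzyme of CUL1 to CUL4, measured 21.1, 23.7 and 22.2 FPKM in WT N, 22.2, 23.4 and 21.1 FPKM in KO N, 20.8, 35.9 and 24.2 FPKM in WT T and 20.4, 36.9 and 20.7 FPKM in KO T, and its difference was 0.68 (limma adjusted p = 0.043). Dcaf12, a receptor that recognises glutamate-rich protein ends, measured 18.3, 20.1 and 17.9 FPKM in WT N, 18.2, 17.4 and 18.5 FPKM in KO N, 12.6, 21.2 and 15.4 FPKM in WT T and 11.5, 20.1 and 13.4 FPKM in KO T. Cul5 overlaps Gm16124 (mean 2.54 FPKM) and Dda1 overlaps Ano8 (3.09 FPKM), both on the other strand. Dcaf12 overlaps Gm26049 (1.08 FPKM) on its own strand and n-R5s183 (1.27 FPKM) on the other. Without KO N of 3 months, the library that stood apart, the count was 0, as it was without any 1 of the T libraries of those ages. Without KO N of 4 months it was 1, and without the WT N library of 3 or 4 months it was 6 or 7.

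In T, proliferation markers moved with this age difference, with 5 of 10 lower and 1 higher at 4 months, and their summed level went from 220.2 to 190.2 FPKM in WT and from 224.9 to 139.5 FPKM in KO. Macrophage and neutrophil markers were higher in 4 of 8, and T cell markers in 5 of 7 tested genes, from 13.0 to 48.3 FPKM in WT and from 32.6 to 59.6 FPKM in KO. The part of these cells in the ligase genes was not tested. Cops3 showed the largest fall, -0.99 on the log2 scale in T (limma adjusted p = 0.01), from 24.2 to 13.0 FPKM in WT and from 29.2 to 12.8 FPKM in KO, and its difference from N did not pass (adjusted p = 0.057).

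**Figure D5:**
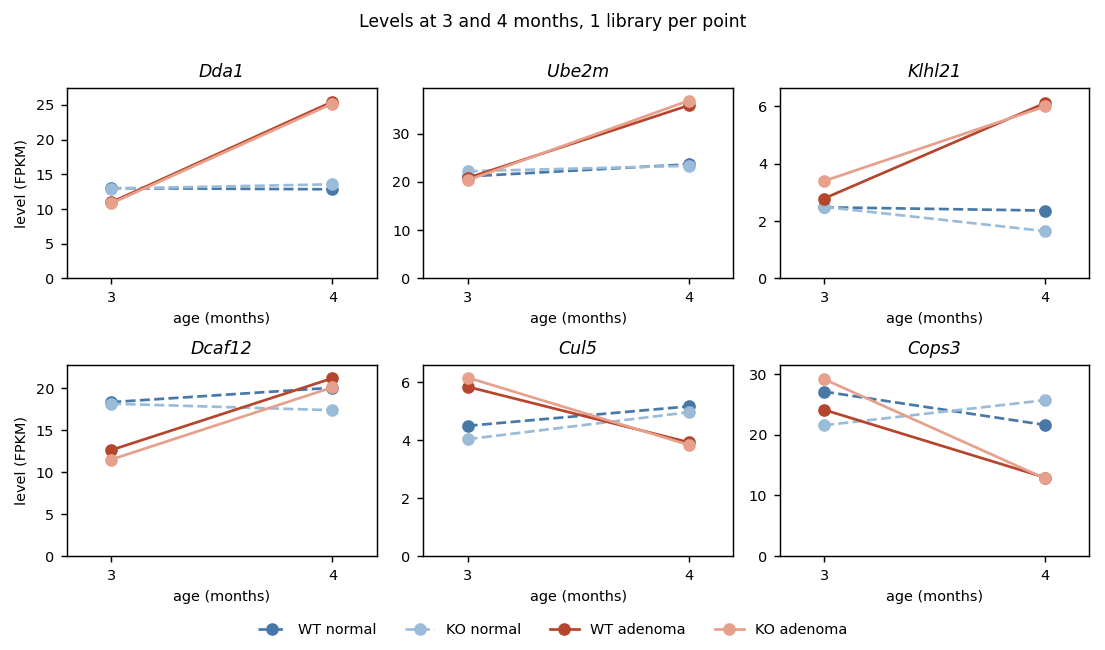
Levels (y axes, FPKM) of 6 members at 3 and 4 months (x axes), 1 library per point, with adenoma as solid and normal colon as dashed lines. Dda1 goes from 10.8 and 10.98 to 25.2 and 25.5 FPKM in adenoma and stays between 12.85 and 13.57 FPKM in normal colon, and Cul5 and Cops3 fall in adenoma of both genotypes.

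The 19 members below the filter averaged 0.415 FPKM or less. Klhl1 had 0 reads in all 12 libraries, so that 3 reads per library, or 0.0255 to 0.0486 FPKM at its length of 4122 bases, bound its level, for counting error only. Cul9, Klhl4, Klhl14, Klhl13, Klhl35, Klhl29 and Klhl3 were the 7 with means above 0.1 FPKM. Klhl4 and Klhl13 peaked in KO N of 3 months, at 0.936 and 0.728 FPKM, beside its muscle marker sum. In the fit without the filter, Klhl14 was higher in T (log2 difference 0.48, limma adjusted p = 0.017). Klhl14 reached 1.09 FPKM in KO T of 5 months, where the muscle marker sum was also high, and 0.317 FPKM in WT T of 5 months. In the T libraries of the other, separately scaled table it measured 0.259 to 0.437 FPKM.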

How the data were processed

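RNA of 12 mouse colon libraries was sequenced from a kit that does not mark strand. The authors deposited FPKM per gene in tables of 8 and 4 libraries, each scaled separately, with gene lengths (another deposited column, in bases). Per the submitters' processing notes, mm10, StringTie, featureCounts 1.5.0-p3 and DESeq2 were used; for the aligner and annotation: not given in the sources used here. FPKM values were whole multiples of 1 read in 100.0% of cases (tolerance 0.01 read), so reads were recovered as an alternative input.

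Groups came from the labels. log2(FPKM + 1), which understates the change of low genes, was fitted with limma 3.58.1 (R 4.3.3, trend) on group and age over all 12 libraries, for the 15526 genes that averaged 0.5 FPKM or more, with Benjamini-Hochberg adjustment over all of them. The fit left 6 residual degrees of freedom. Replicate numbers are ages: same-age libraries of different groups correlated at a median of 0.411 in their deviations (lowest -0.0261, 18 pairs), and the age term serves as the block. Pairs within a tissue lay at 0.666 to 0.78 in T and 0.34 to 0.632 in N. Pairs of T with N lay at 0.112 to 0.422 at 3 months, -0.0261 to 0.0427 at 4 months and 0.404 to 0.446 at 5 months. At 4 months the tissues thus shared little that the block could take up. Values by library are given for all cullins, for up to 5 members of each other class with the smallest p in the tissue comparison among those called with 1 sign in all 6 pairs, for up to 5 members with the smallest p in each genotype comparison and up to 3 in the interaction and the age comparison, and for genes of another list among the 3 with the smallest p, 1 of which is not reported here. Other members with values (Dtl, Dda1, Dcaf12, Cops3, Cops5, Nedd8 and further ones given by a difference only) were chosen after their values were seen, for their role or their age difference. Members, lists and this rule were chosen with earlier results of these data known. Alternatives were another pseudocount and filters, TPM, upper-quartile scaling, voom, no block, and leaving libraries out. The age effects within each tissue and the class shares were chosen after seeing the data. The fit was tested on simulated data. Overlaps were taken from the starts and ends of genes, without comparing exons, and 20 members overlapped a gene of 0.5 FPKM or more. Python 3.11.15, pandas 2.3.3, numpy 2.4.6 and scipy 1.17.1 were used.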

Additional observations from a re-analysis of the deposited data

Results flagged for a closer look

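For 5 members the difference between 4 and 3 months was not the same in adenoma as in adjacent normal colon, by a test of that difference itself (limma, adjusted over all genes, 2 libraries per tissue and age). The difference in T minus that in N was 1.12 for Dda1 (adjusted p = 0.014), 1.01 for Klhl21 (adjusted p = 0.024), 0.70 for Dcaf12 (adjusted p = 0.036), 0.68 for Ube2m (adjusted p = 0.043) and -0.73 for Cul5 (adjusted p = 0.029) on the log2 scale. After TPM rescaling, Dcaf12, Ube2m and Cul5 no longer passed (adjusted p = 0.13, 0.095 and 0.093). Of all tested genes, 18.9% passed the same test, and without KO N of 3 months or any 1 of the T libraries of these ages 0 members did.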

How the results depend on the processing

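The 20 members called between T and N were 10 with a filter at a mean of 5 FPKM, 46 with TPM, 43 with TPM without mitochondrial and immunoglobulin genes, and 8 to 20 with replicates left out. Calls among all genes moved too, and are given as higher and lower, of 15526 unless another total is named. They were 1571 and 2650 of 7608 with that filter, 9157 and 1598 with TPM, and 8516 and 1742 with TPM without those genes. The 13 members called in WT were 8, 42, 35 and 5 to 15 under the same settings, and 6 when only the groups compared were fitted. Of all genes in WT, 1121 and 2262 of 7608 passed with the filter, 8061 and 1149 with TPM, and 7174 and 1291 with TPM without those genes. With only the groups compared, 1934 and 2373 did. The 8 members called in KO were 3, 33, 30 and 3 to 9, 2 with only the groups compared, and 15 with an age term within each tissue. Of all genes in KO, 973 and 1747 of 7608 passed with the filter, 6410 and 1181 with TPM, and 5896 and 1247 with TPM without those genes. With only the groups compared, 821 and 1095 did, and with that age term 3421 and 3559. Without the replicate block the counts of members were 12 over both genotypes, 7 in WT and 5 in KO. All genes then gave 2874 and 2984, 1693 and 2015, and 1404 and 1550. The age effect over all groups called 9 members in place of 0 with an age term within each tissue (all genes 2007 and 1399). The 21 members called for age in T were 12 without the filter (all genes 2677 and 2312 of 33014) and 1 to 22 with replicates left out. The 5 members whose age difference differed between tissues were 2 without the filter, 8 with voom, 3 with only the libraries of 3 and 4 months, and 0 to 7 with replicates left out. All genes gave 810 and 486 of 33014 without the filter, 1516 and 1637 with voom, and 1566 and 944 with only those libraries. The counts for KO against WT and for the interaction were 0 throughout. Signs reversed with TPM for Cops9 (0.0883), Dcaf11 (0.17, and 0.0798 without mitochondrial and immunoglobulin genes), Cul3 (0.28 and 0.19), Cul2 (0.65 and 0.57) and Cul1 (0.56 and 0.47). Cul2 was also at 0.0119 with upper-quartile scaling and 0.0146 without replicate 3 of every group. Cul5 was at -0.0131 with voom, at -0.0572 to 0.0945 with single libraries left out and at -0.167 without replicate 1 of every group. The cause was not tested, other than that fewer genes or libraries enter a stricter filter or a smaller fit.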
